A study of Mus musculus with 8 samples.

Results

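The small leucine-rich proteoglycans of lung myofibroblasts were followed through 10 genes, namely Bgn, Dcn, Aspn, Lum, Fmod, Prelp, Omd, Ogn, Optc and Podn. They were chosen by name, and each matched 1 mouse Ensembl identifier in a table of 43432 genes. All 10 passed the filter on low counts that left 15422 genes for testing. RNA sequencing gave 8 libraries of lung myofibroblasts from mice of a C57BL/6 background at postnatal day 7. In 4 libraries the labelled genotype was Fra-2 transgenic with constitutive expression of Fra-2, and 4 were labelled wild type (control). Fra-2, encoded by Fosl2, is a transcription factor of the AP-1 family. The labels name neither the promoter that drives the transgene nor the way the cells were isolated, and they do not say whether each library came from its own animal. The p-values therefore measure the spread between these libraries, which may be technical.

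Small leucine-rich proteoglycans are secreted proteins built from a row of leucine-rich repeats, most of them carrying chondroitin, dermatan or keratan sulphate chains. They bind the surface of collagen fibrils and regulate fibril width and spacing. Several also bind growth factors or their receptors, among them transforming growth factor beta. In the lung they lie in the collagen-bearing walls of airways, vessels and alveolar septa, and fibroblasts are their main source.

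Total counts were 29926239 to 41335957 per library, and each member had at least 17 reads in every library. Levels are given in CPM, the read count relative to a library size scaled by TMM. Fosl2 itself measured 166, 134, 126 and 104 CPM under the Fra-2 transgenic label and 105, 117, 141 and 119 CPM in the control libraries (log2 fold change 0.14, SE 0.136, adjusted p = 0.888 in edgeR). The gene named as transgene was thus not measurably higher, so the group is called by its label here, as the Fra-2-labelled libraries. By Xist and 4 genes of the Y chromosome, 2 libraries of each group were from females and 2 from males, although control 1, judged male, had 372 Xist reads. Control 2 stood apart in its mitochondrial ribosomal RNA, of which mt-Rnr2 was 5.24% of its reads, against 0.443 to 1.71% in the other libraries. Alveolar myofibroblast markers were present in every library, with a summed level of 17979 to 20246 CPM in Fra-2-labelled libraries and 17494 to 19234 CPM in control libraries. Tgfbi, a secreted matrix protein gene, had the most reads of them.

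In these myofibroblasts 2 of the 10 members, Dcn and Optc, were higher in the Fra-2-labelled libraries, and none was lower by edgeR's test. Of all tested genes 0.720% were called higher and 0.298% lower at an adjusted p under 0.05. Dcn rose 1.51-fold (95% interval 1.26 to 1.82) and Optc, a gene with far fewer reads, 3.22-fold (2.13 to 4.87). In DESeq2 4 members passed upwards and 0 downwards, where 1.70% of all genes with an adjusted p passed upwards and 0.657% downwards. With no adjustment, 5 members had a p under 0.05 upwards and 1, Aspn, downwards in edgeR. Among all tested genes 5.17% had such a p upwards and 3.53% downwards. The median log2 fold change of the 10 members was 0.27, and 8 of the 10 values were positive. Over all tested genes the median was -0.01 and 47.8% of values were positive. In 3 members, Dcn, Optc and Podn, the 4 Fra-2-labelled libraries all lay above the 4 controls, an order found in 3.35% of tested genes. The opposite order was found in 0 members and in 2.42% of tested genes.

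**Figure D1:**
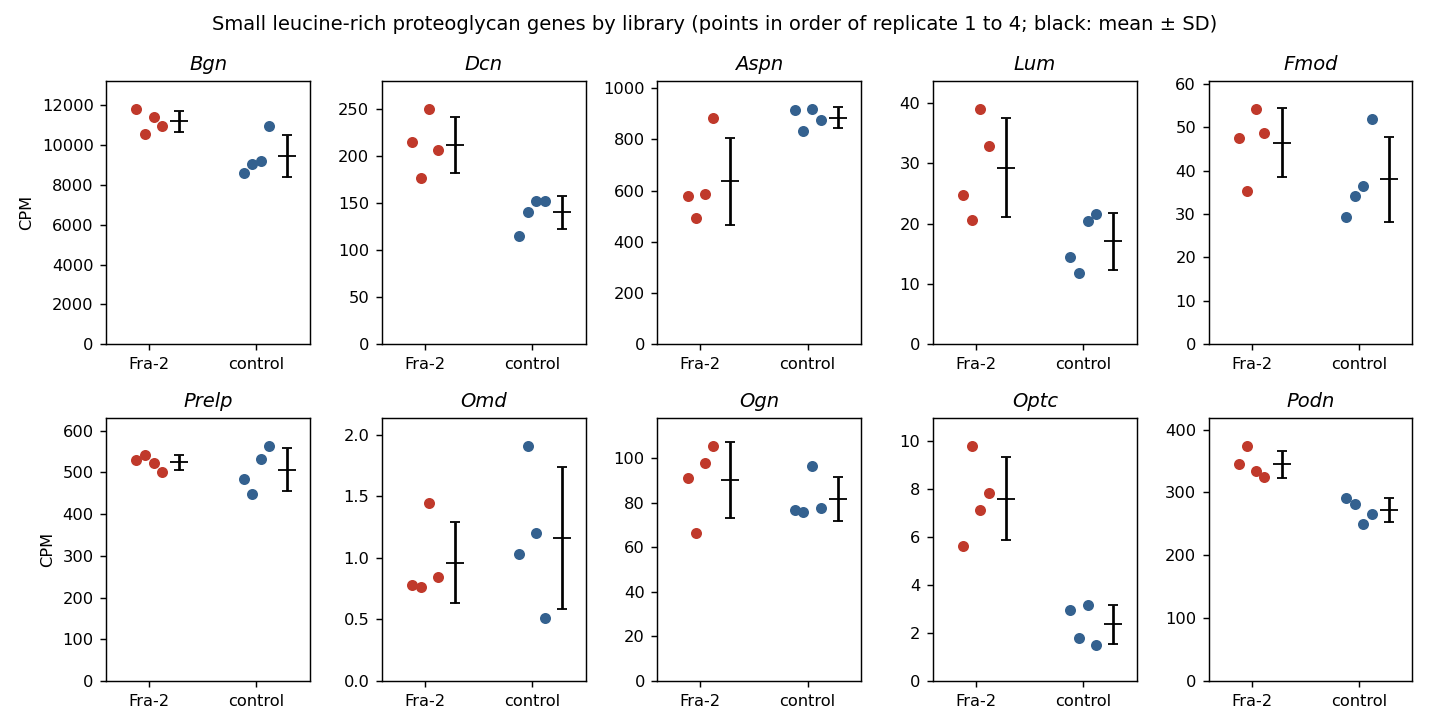
CPM of each member (vertical axes, linear and starting at 0, one scale per gene) in the 4 Fra-2-labelled libraries (red) and the 4 control libraries (blue), with mean and SD in black. Dcn, Optc and Podn separate the groups, while Aspn is lower in 3 of the 4 Fra-2-labelled libraries and at the control level in the fourth.

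Read per length, Bgn, the biglycan gene, dominated the family. Its mean over all 8 libraries was 1693 CPM per kilobase of exons, followed by Aspn at 323, Prelp at 143, Podn at 72.2, Ogn at 33.4, Dcn at 30.1, Fmod at 12.8, Lum at 9.46, Optc at 1.93 and Omd at 0.472 CPM per kilobase. The ranges over libraries overlapped for Ogn and Dcn, for Fmod and Lum and for Optc and Omd, and for no other neighbours. Within libraries, Fmod was above Lum in 8 of 8, Optc above Omd in 7 of 8, all but control 2, and Ogn above Dcn in 5 of 8. Bgn made up 75.5% ± 2.33 of the family's summed level per kilobase in Fra-2-labelled libraries and 70.2% ± 2.07 in control libraries (SD, n = 4 each). The share of Aspn was 11.1% ± 2.66 in Fra-2-labelled libraries and 17.1% ± 1.61 in control libraries. These shares depend on the annotated length. With the length of the longest transcript in place of all annotated exons, the level of Bgn was 3872 CPM per kilobase and its share 87.1% ± 1.38 in Fra-2-labelled libraries and 83.9% ± 1.32 in control libraries, and Dcn ranked above Ogn.

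**Figure D2:**
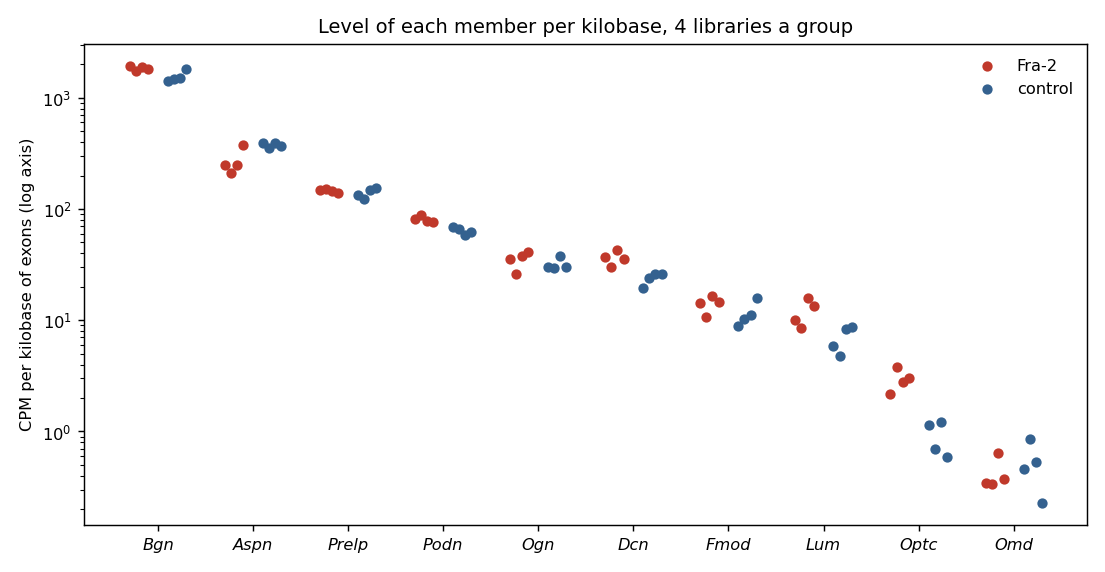
Level of each member in CPM per kilobase of exons (vertical axis, logarithmic) in the Fra-2-labelled libraries (red, left of each pair) and the control libraries (blue), with members in order of their mean. The family runs from 1693 CPM per kilobase for Bgn to 0.472 for Omd, and the Optc libraries of the groups do not overlap.

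Dcn, Bgn and Aspn form the first class of the family. Decorin, the product of Dcn, binds fibrillar collagen and transforming growth factor beta and antagonises receptor tyrosine kinases such as Met. Dcn (ENSMUSG00000019929) measured 215, 176, 249.8 and 206 CPM in Fra-2-labelled libraries, against 115, 140.4, 152 and 152 CPM in control libraries. Every Fra-2-labelled library was above every control, and control 1 was the lowest. The log2 fold change was 0.60 (SE 0.124, adjusted p = 0.0323 in edgeR). The call rested on the full set of libraries. It was lost without Fra-2 1, Fra-2 3, Fra-2 4, control 1, control 2 or control 3, with an adjusted p of up to 0.148, while the log2 fold change stayed between 0.51 and 0.68. It was 0.67 in the female libraries taken alone, where it passed (adjusted p = 0.0185 in edgeR), and 0.52 in the males, where it did not.

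Biglycan, the X-linked relative of decorin, also binds collagen and, once released from the matrix, activates Toll-like receptors. Bgn (ENSMUSG00000031375, chrX:73483602-73495933, plus strand, GRCm38) measured 11809.8, 10566, 11426 and 10985 CPM in Fra-2-labelled libraries and 8580.4, 9055, 9204 and 10965 CPM in control libraries. Control 4 lay within the range of the Fra-2-labelled group, and the other 3 controls below it. The difference of 1.18-fold (95% interval 1.02 to 1.37) did not pass (edgeR adjusted p = 0.459). Bgn took 1.06 to 1.18% of all reads in Fra-2-labelled libraries and 0.888 to 1.08% in control libraries.

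Asporin, the product of Aspn, binds collagen and transforming growth factor beta like decorin but carries no glycosaminoglycan chain. Aspn (ENSMUSG00000021388) measured 579.8, 493, 587 and 882 CPM in Fra-2-labelled libraries and 914, 833, 918 and 875 CPM in control libraries. Fra-2 4 lay among the controls, and the other Fra-2-labelled libraries were all below the lowest control. The log2 fold change was -0.48 (SE 0.148, adjusted p = 0.219 in edgeR). Without Fra-2 4 it was -0.68 and passed (edgeR adjusted p = 0.00946), and in the female libraries alone it was -0.58 (edgeR adjusted p = 0.0308), against -0.38 in the males, where it did not pass. The effect of the group did not pass as different between the sexes for Aspn (interaction adjusted p = 0.99996 in edgeR), nor for the other 9 members. Within single libraries, Dcn gave 37.0, 35.8, 42.5 and 23.4 reads per 100 Aspn reads in the Fra-2-labelled group and 12.6, 16.8, 16.6 and 17.4 in the control group. This ratio needs no scaling between libraries, and its groups did not overlap. It sets a gene with a positive fold change against a gene with a negative fold change. The ratio thus restates those differences and is not a separate test of them. The share of gene pairs that separate the groups in this way was not measured.

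Lum, Fmod, Prelp and Omd belong to the second class, most but not all of whose products carry keratan sulphate or tyrosine sulphate. Lum (ENSMUSG00000036446) encodes lumican, which limits the width of collagen fibrils. It measured 24.6, 20.7, 38.9 and 32.9 CPM in Fra-2-labelled libraries and 14.5, 11.8, 20.5 and 21.5 CPM in control libraries. The groups overlapped only through Fra-2 2, which lay just below control 4. The log2 fold change of 0.78 (SE 0.224) missed the threshold (edgeR adjusted p = 0.173) and passed in DESeq2 (adjusted p = 0.0283).

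Fmod (ENSMUSG00000041559, chr1:134037254-134048277, plus strand) encodes fibromodulin, which binds collagen and the crosslinking enzyme lysyl oxidase. It measured 47.6, 35.3, 54.2 and 48.6 CPM in Fra-2-labelled libraries and 29.4, 34.1, 36.6 and 52.0 CPM in control libraries, with Fra-2 2 at the level of most controls and control 4 at that of most Fra-2-labelled libraries. Its fold change of 1.22 had a 95% interval of 0.943 to 1.58 and did not pass (edgeR adjusted p = 0.727). Prelp (ENSMUSG00000041577) encodes prolargin, which anchors basement membranes to collagen. It measured 524 ± 17.1 CPM in Fra-2-labelled libraries and 507 ± 51.4 CPM in control libraries (SD, n = 4 each). Its fold change was 1.03 (95% interval 0.895 to 1.19, edgeR adjusted p = 0.954). Omd (ENSMUSG00000048368) encodes osteomodulin, known from bone. It had only 24 to 46 reads in Fra-2-labelled libraries and 17 to 67 reads in control libraries. The fold change was 0.825, with an interval of 0.408 to 1.67 that includes differences of either sign, and did not pass (edgeR adjusted p = 0.945).

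The third class is represented by Ogn and Optc. Ogn (ENSMUSG00000021390) encodes osteoglycin, also called mimecan, a regulator of collagen fibrils. It measured 91.0, 66.4, 97.9 and 105 CPM in Fra-2-labelled libraries and 76.6, 75.6, 96.3 and 77.4 CPM in control libraries, and the groups overlapped. The fold change was 1.11 (95% interval 0.902 to 1.36, edgeR adjusted p = 0.882). Optc (ENSMUSG00000010311) encodes opticin, known chiefly from the vitreous body of the eye. It had 195, 308, 227 and 296 reads in Fra-2-labelled libraries and 129, 63, 100 and 50 reads in control libraries. In CPM these were 5.62, 9.81, 7.15 and 7.84 in Fra-2-labelled libraries and 2.96, 1.80, 3.16 and 1.504 in control libraries. Every Fra-2-labelled library exceeded every control. The log2 fold change was 1.69 (SE 0.278, adjusted p = 0.00818 in edgeR), and the call was kept without each of the 8 libraries in turn, with an adjusted p of up to 0.0385. It was 1.37 in the female and 1.97 in the male libraries taken alone, where 2 against 2 libraries did not pass (edgeR adjusted p = 0.124 and 0.576).

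Podn (ENSMUSG00000028600, chr4:108014791-108096445, minus strand), of the fifth class, encodes podocan, which binds collagen and restrains the growth of smooth muscle cells. It measured 345, 374, 334 and 325 CPM in Fra-2-labelled libraries and 292, 281, 249.7 and 266 CPM in control libraries. The groups did not overlap, and the spread within each was small. The log2 fold change was 0.34 (SE 0.0935). It did not pass in edgeR (adjusted p = 0.138) and did in DESeq2 (adjusted p = 0.0273). The annotated span of Podn overlaps that of Scp2, on the same strand. Scp2 had 193 to 373 reads per library, against 7904 to 12709 for Podn. How reads of overlapping genes were assigned is not given, so these counts do not show how far Scp2 reads entered those of Podn.

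**Figure D3:**
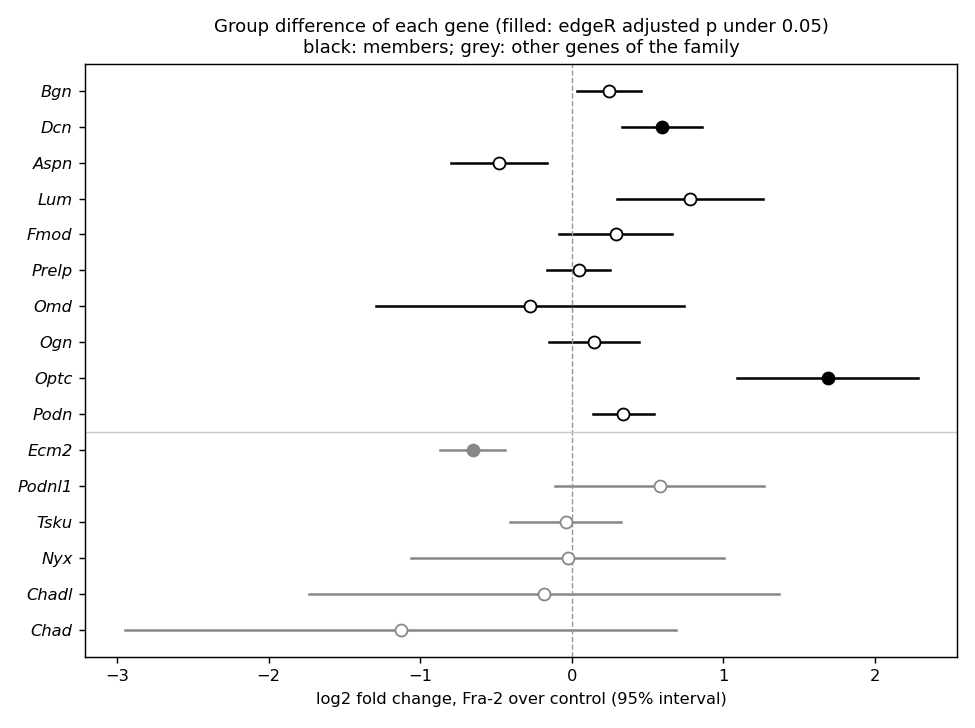
Log2 fold change of Fra-2-labelled over control libraries (horizontal axis) with its 95% interval for the 10 members (black) and the 6 tested relatives outside the list (grey), filled where the edgeR adjusted p was under 0.05. Dcn (0.60) and Optc (1.69) are filled to the right of 0 and Ecm2 (-0.65) to its left.

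Most of these genes sit in 3 clusters of tandem relatives, and the groups differed unevenly along them. On chromosome 1, Optc (133897199 to 133907999) and Prelp (133910304 to 133921414) are transcribed in the same direction from the minus strand and lie 2.3 kb apart in GRCm38, with Optc downstream. Fmod lies 115.8 kb further on. Optc was called higher and its neighbours were not. Optc had 10.6, 18.1, 13.7 and 15.6 reads per 1000 Prelp reads in Fra-2-labelled libraries, against 6.13, 4.01, 5.93 and 2.67 in control libraries. These ratios did not overlap between the groups, and neither did the Optc levels themselves. How many gene pairs separate the groups in this way was not measured. The antisense gene Gm15851, which overlaps both, had 0 to 7 reads per library. As for Scp2, this count does not show how far its reads entered those of the genes it overlaps.

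On chromosome 10, Dcn (97479609 to 97518143) and Lum (97565128 to 97572703) lie 47.0 kb apart. Both had positive fold changes, of which only that of Dcn passed. Dcn gave 8.71, 8.53, 6.42 and 6.28 reads per Lum read in Fra-2-labelled libraries and 7.94, 11.9, 7.45 and 7.09 in control libraries, ranges that overlapped. The next genes of the cluster, the keratocan gene Kera and the epiphycan gene Epyc, had 0 to 6 and 0 to 1 reads per library and were not tested.

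On chromosome 13, Ecm2 (49504810 to 49532789), Aspn (49544443 to 49567565), Omd (49582462 to 49592822) and Ogn (49608046 to 49624501) follow each other within 119.7 kb. Ecm2, a leucine-rich matrix protein gene outside the list of 10, was called lower. It measured 122, 115, 112 and 128 CPM in Fra-2-labelled libraries and 165, 182, 208 and 195 CPM in control libraries. Its groups were far apart, with a log2 fold change of -0.65 (SE 0.0993, adjusted p = 0.00483 in edgeR), and the call was kept without each library in turn but not in the males alone, where it was -0.57. Aspn beside it had a log2 fold change of -0.48, Omd -0.28 and Ogn 0.15, of which none passed. Aspn gave 6.37, 7.42, 6.00 and 8.37 reads per Ogn read in Fra-2-labelled libraries and 11.9, 11.03, 9.53 and 11.3 in control libraries. These ratios did not overlap, but here too no share of gene pairs that separate the groups was measured. Aspn reads per Ecm2 read did overlap, at 4.75, 4.27, 5.25 and 6.89 in Fra-2-labelled libraries and 5.53, 4.57, 4.42 and 4.47 in control libraries. All 4 genes lie inside the span of Cenpp, a centromere protein gene on the opposite strand with 88 to 195 reads per library. The protocols name no step that keeps the strand, so reads of the 2 strands cannot be told apart there. Reads assigned to Cenpp were fewer than those of Ecm2, Aspn and Ogn and more than those of Omd. Nothing is given on how overlapping reads were assigned. These counts therefore do not show how far Cenpp reads entered those of the 4 genes.

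**Figure D4:**
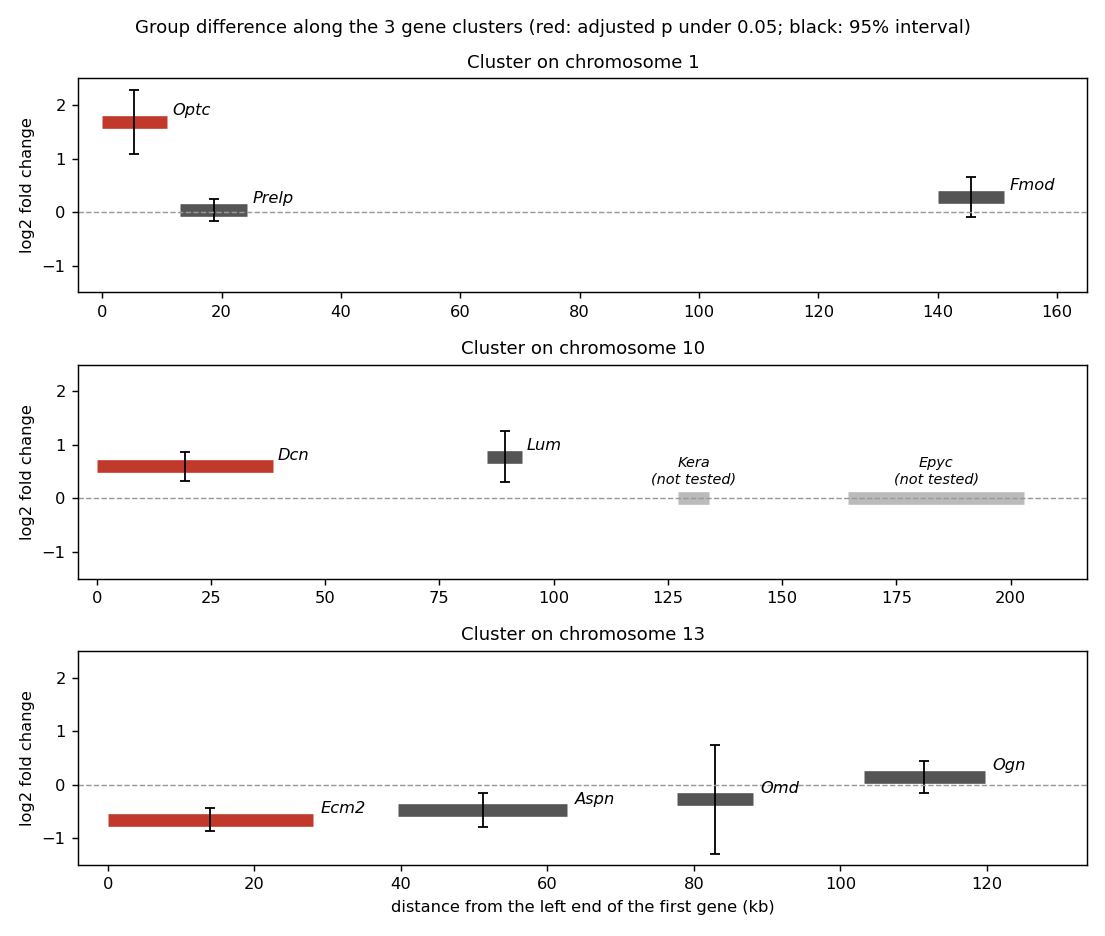
Log2 fold change of Fra-2-labelled over control libraries (vertical axes) along the 3 clusters, against the distance from the left end of the first gene in kb. Thick bars span the genes, in red where the edgeR adjusted p was under 0.05, and black lines are 95% intervals. Optc (1.69) stands apart from Prelp (0.05) beside it, and the values of the third cluster run from -0.65 for Ecm2 to 0.15 for Ogn.

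Promoter sequences were read from RefSeq for GRCm38.p6, from 250 bases before to 50 after each start, and matched 8 of the 10 members, all but Dcn and Lum. The windows of the called genes Optc and Ecm2 are printed, each with that of the gene beside it, Prelp and Aspn, neither of which was called. Capitals mark the letters TATAAA on either strand.
Optc promoter, chr1:133907950-133908249, minus strand: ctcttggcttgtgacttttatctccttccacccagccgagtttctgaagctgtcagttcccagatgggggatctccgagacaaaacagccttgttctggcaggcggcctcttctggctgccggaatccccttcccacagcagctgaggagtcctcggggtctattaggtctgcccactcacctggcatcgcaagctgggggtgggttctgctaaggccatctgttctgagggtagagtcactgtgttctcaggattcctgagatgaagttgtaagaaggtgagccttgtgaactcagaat
Prelp promoter, chr1:133921352-133921651, minus strand: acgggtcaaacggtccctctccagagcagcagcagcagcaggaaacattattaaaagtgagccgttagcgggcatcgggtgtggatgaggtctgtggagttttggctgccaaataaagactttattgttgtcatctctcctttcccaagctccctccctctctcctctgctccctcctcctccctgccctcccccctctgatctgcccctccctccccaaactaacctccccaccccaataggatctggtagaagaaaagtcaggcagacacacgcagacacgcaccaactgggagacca
Ecm2 promoter, chr13:49504560-49504859, plus strand: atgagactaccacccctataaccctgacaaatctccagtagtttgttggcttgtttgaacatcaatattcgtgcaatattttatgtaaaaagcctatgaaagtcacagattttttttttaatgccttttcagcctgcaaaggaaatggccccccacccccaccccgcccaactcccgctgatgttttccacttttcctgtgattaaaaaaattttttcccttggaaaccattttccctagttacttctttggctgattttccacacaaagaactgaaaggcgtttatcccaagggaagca
Aspn promoter, chr13:49544193-49544492, plus strand: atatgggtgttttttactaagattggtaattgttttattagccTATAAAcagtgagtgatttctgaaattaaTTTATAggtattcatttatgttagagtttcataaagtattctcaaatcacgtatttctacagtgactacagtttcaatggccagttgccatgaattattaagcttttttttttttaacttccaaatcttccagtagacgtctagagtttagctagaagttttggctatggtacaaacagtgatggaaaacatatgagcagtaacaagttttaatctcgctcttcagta
The AP-1 motif TGACTCA was searched on both strands, which covers TGAGTCA. It was found in none of the 9 member windows (Podn has 2) and not in that of Ecm2, while 5.2% of 32851 windows of this length held it. The related motif TGACGTCA was also found in none of them, with 1.79% of all windows holding it. The letters TATAAA, on either strand, were present in 2 member windows, those of Aspn and Ogn, and in 13.6% of all windows. No match says only that these letters are not in these windows. GC content ran from 31.0% in the window of Aspn to 77.0% in 1 of the windows of Podn, around a median of 52.7% over all windows.

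Across the 8 libraries the members did not share 1 profile. Fra-2 3 was the highest library for Dcn, Lum and Fmod, Fra-2 1 for Bgn, Fra-2 2 for Optc and Podn, and Fra-2 4 for Ogn. Fra-2 2 was the lowest library for Ogn and Aspn. Likeness was measured as the root mean square distance between log2 CPM values scaled to mean 0 and SD 1 over the 8 libraries, among 9724 genes other than the member with a mean of at least 5 CPM. The genes nearest to Dcn were Inhba (0.151), which encodes a subunit of activin A, the collagen gene Col2a1 (0.154) and Tnfaip6 (0.168), a hyaluronan-binding protein gene. The nearest member to Dcn was Lum, at 0.454 and rank 186, and the nearest to Bgn was Fmod, at 0.455 and rank 164. Those nearest to Bgn were Osmr (0.146), the oncostatin M receptor gene, Mylk4 (0.177) and H6pd (0.196). Aspn lay nearest to Ubb (0.247), a ubiquitin gene, Ptcd2 (0.278) and Erlin1 (0.281), and its nearest member, Ogn, was at 1.16 and rank 3694. The nearest genes were Tns3 (0.159), Gpc1 (0.196) and Med1 (0.223) for Lum, and Znrf3 (0.189), Slc35a4 (0.193) and Kctd10 (0.193) for Fmod. They were Fam114a1 (0.261), Tmtc3 (0.261) and Txnrd1 (0.269) for Ogn, Fndc1 (0.286), Sgpl1 (0.304) and Sft2d2 (0.306) for Prelp, and Nsmf (0.238), Lpcat4 (0.263) and Dmpk (0.276) for Podn. Distances over 8 libraries that also carry the group difference describe the profiles only.

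Of 9 further genes of the family, 6 were tested. Ecm2 fell and 5 did not pass. None rose in edgeR or DESeq2, and 0 had an unadjusted p under 0.05 upwards. Podnl1, which encodes a podocan-like protein, measured 3.39 ± 0.686 CPM in Fra-2-labelled libraries and 2.26 ± 1.01 CPM in control libraries (SD, n = 4 each, edgeR adjusted p = 0.688). Tsku, the gene of the signalling antagonist tsukushi, measured 13.96 ± 1.86 CPM in Fra-2-labelled libraries and 14.4 ± 3.03 CPM in control libraries. Nyx, Chadl and Chad had 20 to 103, 2 to 32 and 0 to 28 reads per library. Kera, Epyc and Nepn were too low to test.

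Genes that build the sugar chains of these proteins were not called in the edgeR fit used for the members. Of 23 chondroitin and dermatan sulphate genes, 22 were tested, and 0 rose and 0 fell in edgeR, where 3 had an unadjusted p under 0.05, all upwards (5.17% of all tested genes did so). DESeq2 called 1 higher and 0 lower. The median log2 fold change was 0.09. The gene with most reads, the chain-elongating synthase gene Chsy1, measured 112 ± 15.04 CPM in Fra-2-labelled libraries and 114 ± 29.4 CPM in control libraries (SD, n = 4 each). Of 11 keratan sulphate genes, 7 were tested, and again 0 rose and 0 fell in edgeR, with 2 at an unadjusted p under 0.05 upwards and 1 called higher by DESeq2 (median 0.05). Chst2, a sulphotransferase gene, measured 518 ± 42.3 CPM in Fra-2-labelled libraries and 497 ± 54.4 CPM in control libraries.

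The collagens that the family binds also gave no call in that fit. Of 14 genes of the fibril and its surface 0 rose and 0 fell, with 4 upwards and 2 downwards at an unadjusted p under 0.05, against 5.17% and 3.53% of all tested genes (median log2 fold change 0.14), and DESeq2 called 2 higher and 1 lower. Col1a2, a chain of type I collagen, measured 7468 ± 596 CPM in Fra-2-labelled libraries and 6223 ± 340.3 CPM in control libraries (edgeR adjusted p = 0.340). Of 8 collagen crosslinking enzymes 0 rose and 0 fell in edgeR, with 1 called higher by DESeq2 (median 0.26). At an unadjusted p under 0.05, 6 of the 8 were upwards, against 5.17% of all tested genes. Fold changes were positive in 7 of the 8, all but Loxl2, against 47.8% of all tested genes. Loxl2, the lysyl oxidase relative with most reads, measured 1796 ± 199.7 CPM in Fra-2-labelled libraries and 1814 ± 181 CPM in control libraries. Of 12 proteases known to act on the family, 8 were tested, with 0 called in either direction by edgeR or DESeq2 and 1 upwards at an unadjusted p under 0.05 (median 0.01). The membrane-bound metalloproteinase gene Mmp14 measured 815 ± 92.2 CPM in Fra-2-labelled libraries and 809 ± 44.4 CPM in control libraries.

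Among the signalling partners of the family, Met, the receptor of hepatocyte growth factor and a target of decorin, fell. It measured 178, 194, 170.4 and 160.4 CPM in Fra-2-labelled libraries and 226, 247, 236 and 236 CPM in control libraries, which did not overlap (log2 fold change -0.43, SE 0.0926, adjusted p = 0.0439 in edgeR). The call was close to the threshold. Leaving out any library except Fra-2 2 ended it, with an adjusted p of up to 0.199, as did scaling by total count (0.0559) and sex as a term (0.0817). Neither sex alone gave the call. Of 20 partners 19 were tested, and 18 did not pass. None rose in edgeR or DESeq2, and DESeq2 called 1 lower. At an unadjusted p under 0.05 in edgeR, 2 of the 19 were upwards and 2, Met among them, downwards. Of all tested genes 5.17% were upwards and 3.53% downwards at that p. Among 19 tested genes of 22 other proteoglycan core proteins, Hspg2, which encodes the basement membrane proteoglycan perlecan, rose and 18 did not pass. None fell in edgeR or DESeq2, and DESeq2 called 1 higher. At an unadjusted p under 0.05 in edgeR, 4 of these 19 were upwards and 1 downwards. Hspg2 measured 789, 712, 693 and 718 CPM in Fra-2-labelled libraries and 495, 493, 557 and 542 CPM in control libraries. Its log2 fold change was 0.48 (SE 0.0918, adjusted p = 0.0215 in edgeR). Its call ended without Fra-2 1, Fra-2 3, Fra-2 4, control 2 or control 3, with an adjusted p of up to 0.0949, and in each sex alone.

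**Figure D5:**
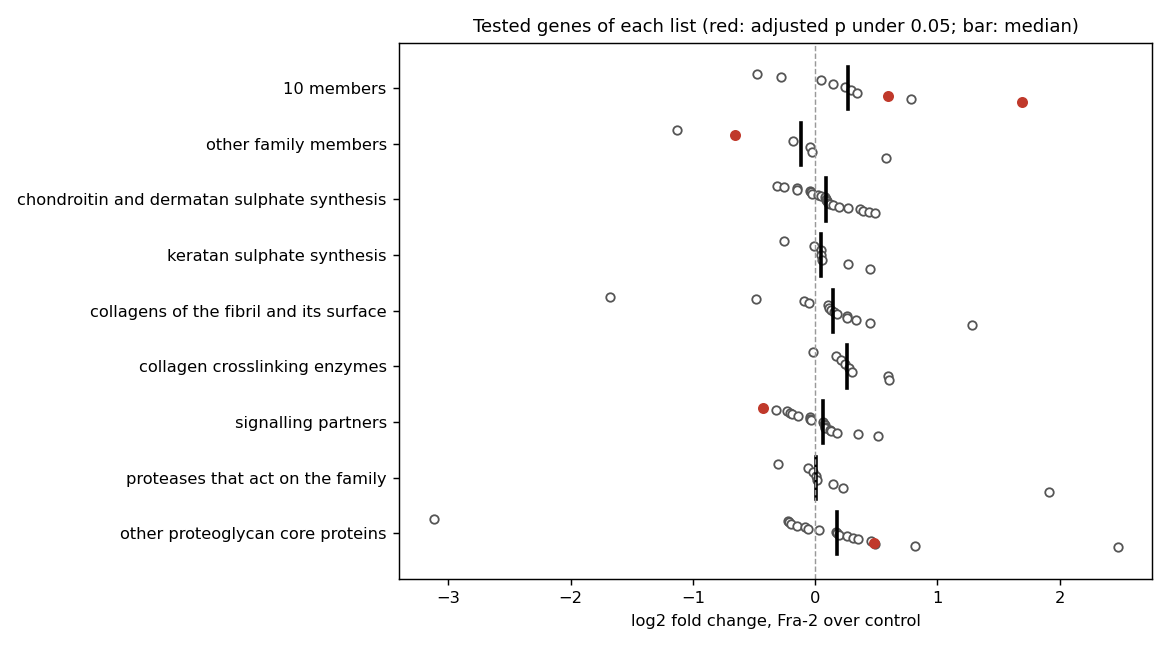
Log2 fold change of Fra-2-labelled over control libraries (horizontal axis) for the tested genes of the members and the 8 other family and pathway lists, 1 point per gene, cell type markers left out, red where the edgeR adjusted p was under 0.05, with a bar at the median. Among these lists the medians run from -0.11 for other family members to 0.27 for the 10 members, and red points are Dcn, Optc, Ecm2, Met and Hspg2.

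Markers of other fibroblasts, which also make these proteoglycans, were set beside Dcn and Lum. For matrix and lipid-type alveolar fibroblasts, the summed level of 8 markers was 4389 to 4891 CPM in Fra-2-labelled libraries and 2533 to 4219 CPM in control libraries, and 8 of 8 fold changes were positive. edgeR called 0 of them, with 4 upwards at an unadjusted p under 0.05, and DESeq2 called 3 higher. Over all tested genes 47.8% of fold changes were positive and 5.17% had such a p upwards. DESeq2 called 1.70% of all genes with an adjusted p higher. None of these markers was at 0 in all libraries. Mfap4, a microfibril-associated protein gene, supplied most of the sum. For adventitial fibroblasts the sum of 10 markers was 1643 to 2018 CPM in Fra-2-labelled libraries and 1395 to 1699.8 CPM in control libraries, with 8 of 9 tested markers positive and none at 0 in all libraries. At an unadjusted p under 0.05 in edgeR, 3 of the 9 were upwards, and DESeq2 called 2 higher. After adjustment edgeR called 1 adventitial marker higher, Dpt, which encodes the decorin-binding protein dermatopontin. It averaged 536 ± 69.7 CPM in Fra-2-labelled libraries and 361 ± 54.5 CPM in control libraries (SD, n = 4 each, edgeR adjusted p = 0.0490), but did not pass without Fra-2 1, 3 or 4 or control 1, 2 or 3, in the males alone, with sex as a term or without robust dispersion. Of the other adventitial markers, Pi16 and Dpp4 averaged 8.80 and 2.79 CPM in Fra-2-labelled libraries and 7.21 and 2.86 CPM in control libraries. Clec3b and Igfbp6 averaged 12.4 and 3.75 CPM in Fra-2-labelled libraries and 7.96 and 2.10 CPM in control libraries. Neither of these passed in edgeR (adjusted p = 0.103 and 0.395). Dpp4 alone of the 9 tested markers had a negative fold change. The alveolar myofibroblast markers also had mostly positive fold changes, in 7 of 8. edgeR called 0 of these 8, with 2 upwards at an unadjusted p under 0.05, and DESeq2 called 1 higher. The part of any of these markers in the differences of Dcn and Lum was not tested. In bulk samples more cells of a type and more RNA per cell cannot be told apart.

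The marker lists of other cell types had no gene called by edgeR, and DESeq2 called 1 chondrocyte and 1 epithelial marker higher. At an unadjusted p under 0.05 in edgeR, 2 of 7 tested pericyte, 2 of 6 chondrocyte and 2 of 5 mesothelial markers were upwards. So were 1 of 6 endothelial, 1 of 6 epithelial and 0 of 6 immune markers, against 5.17% of all tested genes. Downwards was 1 pericyte marker, against 3.53% of all tested genes. Summed levels in Fra-2-labelled and control libraries were 781 to 810.4 and 616 to 812 CPM for 7 pericyte markers (Pdgfrb with most reads), and 78.3 to 104 and 60.7 to 85.3 CPM for 10 chondrocyte markers (Col2a1), of which Matn1 was at 0 in all libraries. They were 7.197 to 14.04 and 3.95 to 9.54 CPM for 6 mesothelial markers (Upk3b), and 65.3 to 79.1 and 45.9 to 66.2 CPM for 6 endothelial markers (Cdh5). For 6 epithelial markers (Sftpc) they were 101 to 196 and 51.6 to 122 CPM, and for 6 immune markers (Lyz2) 81.5 to 109.5 and 73.8 to 99.6 CPM. Their part in the members' differences was not tested.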

How the data were processed

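Per the labels' protocols, 50 ng of total RNA gave the mRNA, its cDNA was amplified (NuGEN Ovation) and libraries were made with Nextera XT, none of which is stated to keep the strand. The deposited table holds the authors' raw gene counts. The submitters' processing notes name build GRCh38, a human build, whereas the identifiers are of mouse genes. For aligner, counting tool and annotation, nothing is given in the sources used here. Symbols, coordinates and lengths came from GENCODE M21 (GRCm38), with 42462 of 43432 identifiers matched. Rows without a symbol held 0.0892% of counts and stayed in the totals.

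Counts were analysed in R 4.3.3 with edgeR 4.0.16: filterByExpr (minimum count 10, minimum total 15), TMM scaling, robust dispersion (common biological coefficient of variation 0.257) and the quasi-likelihood F-test, two-sided, with Benjamini-Hochberg adjustment over 15422 genes at 0.05. The standard error was taken as the size of the log2 fold change divided by the root of its F statistic, with 95% intervals. Intervals cover the spread between these libraries. DESeq2 1.42.0 and limma-voom 3.58.1 were alternatives. Replicate pairs differed by a chi-square per gene of 39.7 to 175, so no library was counted as a repeat.

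The members, lists and rule for named genes were chosen with earlier results of these data known. The rule names all members and up to 3 called genes of each list, or else its most abundant. For each member with a mean of at least 5 CPM it also names the 3 genes nearest in profile. Pi16, Dpp4, Clec3b and Igfbp6 were among the genes named outside it.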

Additional observations from a re-analysis of the deposited data

Results flagged for a closer look

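In each group of 4 libraries, the library farthest from the others was compared with Dixon's critical value at 95%, for 20 sets of 4 values. Chance flags about 1 in 20. Ogn stood out in control 3, with 96.3 CPM against 75.6 to 77.4 CPM in the other controls. Omd stood out in Fra-2 3, with 1.45 CPM against 0.764 to 0.848 CPM in the other Fra-2-labelled libraries, a difference that rests on 46 reads.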

How the results depend on the processing

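Of the alternatives, DESeq2 called 4 members higher, 269 genes higher and 104 lower in all, and an adjusted p under 0.10 gave 73 lower genes. In the female libraries alone 1 member was higher and 1 lower, and in the males 0 members were higher, with 3 genes higher and 0 lower overall. Without 1 library at a time, 1 to 2 members were higher and 0 to 1 lower, with 50 to 153 genes higher and 22 to 52 lower. Deviations of samples with the same replicate number had correlations of 0.0018 to 0.31, and those with different numbers -0.30 to 0.20. These ranges overlap, so whether the numbers pair the samples was not settled. With the replicate number as a block, 3 members were higher, Lum being the third. Among members, Prelp and Omd changed sign. Prelp had a log2 fold change of -0.0035 in the males and ran from -0.00051 to 0.10 without 1 library. Omd had 0.057 in the males and ran from -0.54 to 0.073. Neither was called in any fit. The fits in which the sign changed used fewer libraries, and the cause of these changes was not tested. RLE and total-count scaling, both other filters, limma-voom, dispersion not robust, sex as a term and, added after the data were seen, mitochondrial ribosomal RNA left out kept 2 members higher and 0 lower. The stricter filter, at a minimum count of 50, left Omd out. Among the other gene lists, edgeR called 1 collagen gene lower with total-count scaling, 1 higher and 1 lower with no filter, and 1 lower with the replicate block, which also gave 1 keratan sulphate and 1 crosslinking gene higher. Over all list counts and settings, 296 stayed within 1.5 times, 23 gained and 17 lost calls. Omd, with 17 to 67 reads a library, is the member measured with the fewest reads.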
